A study of Homo sapiens with 4 samples.

Results

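Small chromatin loops whose anchors both lay outside protein-coding genes were examined in MDA-MB-231 cells, an established triple negative breast cancer (TNBC) cell line. The cells had received vehicle (DMSO) or 75 nM THZ1, a covalent small-molecule inhibitor of CDK7, for 48 h before Arima-HiC, with 2 libraries per condition that the labels call technical replicates. A loop was included when its anchors started 90 kb or less apart and neither anchor, widened by 5 kb on each side, touched the body of a protein-coding gene (GENCODE 44 on GRCh37). This rule found 1034 of 20768 loops for vehicle replicate 1 and 1275 of 24219 for vehicle replicate 2. It found 590 of 17222 for THZ1 replicate 1 and 473 of 15066 for THZ1 replicate 2, which makes 2299 distinct anchor pairs of 52058 in all. Nothing in the labels says that the libraries of a condition came from separate cultures, so the spread between them may be technical.

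Hi-C joins DNA ends that lie close together in the nucleus, and a loop is called where a pair of sites touches more often than its surroundings. In interphase, cohesin extrudes DNA until it meets the zinc finger protein CTCF, and many loops therefore end at CTCF sites that face each other. Condensin, the related complex that compacts mitotic chromosomes, also folds DNA into loops, and the study tied loops of 90 kb or less to condensin. CDK7 is the kinase of the general transcription factor TFIIH that phosphorylates RNA polymerase II. Loops between gene-free sites can join CTCF sites, enhancers, noncoding RNA genes or silent chromatin, which these data do not separate.

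Of the 109 small loops outside genes with identical anchors in all 4 lists, 106 had 5 kb anchors and were read for the CTCF core. In 6 of them matches faced each other. The 4 shown were picked because they passed the edgeR test described below as weaker with THZ1. The other loops with facing matches, near POLG and NMBR, did not pass (edgeR adjusted p = 0.13 and 0.47) and are not shown. Facing matches were chosen because facing CTCF sites are the known arrangement at loop ends. No other motif was searched. Each line gives a 40-base stretch of GRCh37, 5′ to 3′ on the strand of the match, and the capitals mark the CTCF core that was searched on both strands, which is CCA, AG and GGC with 2 free bases between them.
Upstream anchor of the chromosome 12 loop near TESPA1, chr12:55387186-55387225, plus strand: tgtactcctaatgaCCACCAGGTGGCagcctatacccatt
Downstream anchor of the same loop, chr12:55466063-55466102, minus strand: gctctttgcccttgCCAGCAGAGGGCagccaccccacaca
Upstream anchor of the chromosome 2 loop near TEX44, chr2:232476129-232476168, plus strand: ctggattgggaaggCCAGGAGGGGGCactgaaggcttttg
Upstream anchor of the same loop, chr2:232477421-232477460, plus strand: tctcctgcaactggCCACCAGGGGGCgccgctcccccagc
Downstream anchor of the same loop, chr2:232535781-232535820, minus strand: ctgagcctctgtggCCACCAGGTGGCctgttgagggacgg
Upstream anchor of the chromosome 5 loop near FBXO4, chr5:42005824-42005863, plus strand: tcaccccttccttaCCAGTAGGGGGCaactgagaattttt
Downstream anchor of the same loop, chr5:42057515-42057554, minus strand: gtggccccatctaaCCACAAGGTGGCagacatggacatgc
Upstream anchor of the chromosome 10 loop near FAM241B, chr10:71404470-71404509, plus strand: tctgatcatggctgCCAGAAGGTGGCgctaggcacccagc
Downstream anchor of the same loop, chr10:71476878-71476917, minus strand: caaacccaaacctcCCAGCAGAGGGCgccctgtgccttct
Further matches are not shown: a plus-strand and a minus-strand match in the upstream anchor near TEX44, and a minus-strand match in that near FAM241B. A minus-strand match in an upstream anchor points away from the other anchor, so these anchors hold matches in both directions. A loop counted as facing when its upstream anchor held a plus-strand match and its downstream anchor a minus-strand match, whatever else they held. A match describes the letters only and does not show that CTCF was bound.

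THZ1-treated cells had fewer small loops outside genes. The mean was 1154.5 ± 170 loops per vehicle library and 531.5 ± 82.7 per THZ1 library (SD, n = 2), a log2 ratio of -1.12 ± 0.31, and both THZ1 libraries lay below both vehicle libraries. The exact two-sided permutation test over the 4 libraries gave p = 0.33, the smallest value that 2 libraries against 2 allow, so no difference between single values per library could pass a threshold here. The number of all called loops was also lower with THZ1, by a log2 ratio of -0.48 ± 0.21. The lists hold no read totals, so the part of sequencing depth in these numbers was not tested. When the 15000 strongest loops of each list were taken, the numbers were 618 and 539 with vehicle against 440 and 467 with THZ1, and the log2 ratio shrank to -0.35. The order of the conditions was kept, at less than the main size.

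**Figure D1:**
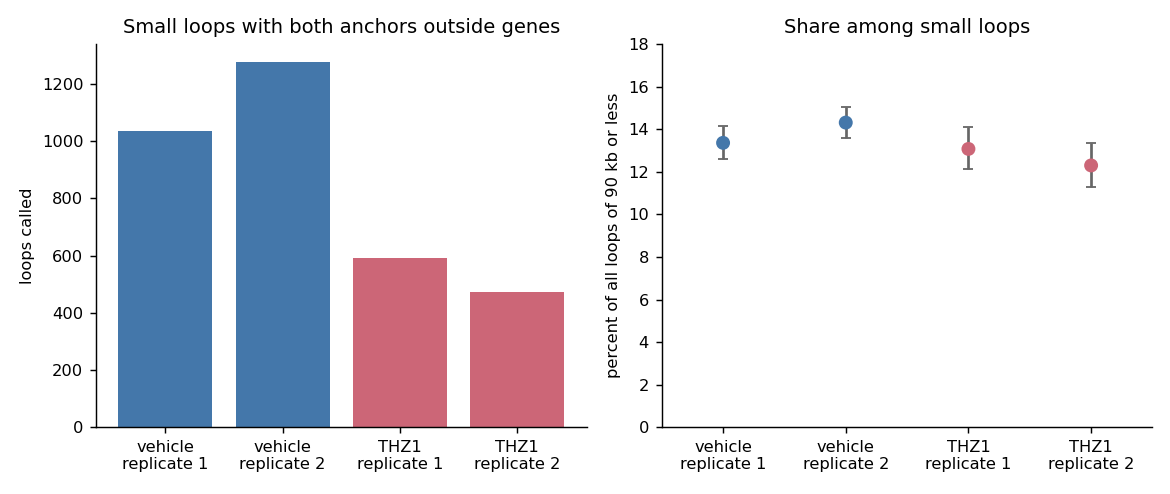
Left, the number of small loops with both anchors outside genes in each library. Right, these loops as a percent of all loops of 90 kb or less in the same list, with 95% Wilson intervals that cover counting error only. Both THZ1 libraries (590 and 473 loops) lie below both vehicle libraries (1034 and 1275), while the shares lie between 12.3% and 14.3%.

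Other small loops were fewer as well. Loops of 90 kb or less with a gene at 1 anchor differed by a log2 ratio of -0.95 ± 0.17, and those with a gene at both anchors by -0.98 ± 0.21. Loops over 90 kb with both anchors outside genes differed by only -0.30 ± 0.24. Among all loops of 90 kb or less, those outside genes made up 13.4% and 14.3% with vehicle against 13.1% and 12.3% with THZ1. The means were 13.8% ± 0.67 and 12.7% ± 0.55 (SD, n = 2; exact permutation p = 0.33), and the Wilson intervals of vehicle replicate 1 (12.6 to 14.1%) and THZ1 replicate 1 (12.1 to 14.1%) overlapped, while those of vehicle replicate 2 (13.6 to 15.1%) and THZ1 replicate 2 (11.3 to 13.4%) did not. With the bodies of all annotated genes in the rule, noncoding genes included, the difference in share shrank from -1.15 to -0.28 percentage points. Whether loops outside genes were lost more than other small loops was therefore not resolved.

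The lower numbers were spread over the genome. On all 23 chromosomes with such loops, both vehicle libraries had more of them than both THZ1 libraries. The order was the same on each chromosome for all loops of 90 kb or less, so it was not particular to loops outside genes. On chromosome 19, for example, all such small loops numbered 431 and 504 with vehicle against 245 and 218 with THZ1. Mean numbers were 1.64-fold higher with vehicle on chromosome 4 and 3.5-fold higher on chromosome 16, the ends of the range, and the median over chromosomes was 2.28-fold. Chromosome 16 had only 6 and 8 loops with vehicle against 1 and 3 with THZ1, so its ratio rests on few loops. Chromosome 6 had the most in vehicle replicate 1 with 117 loops, against 137, 66 and 59 in vehicle replicate 2, THZ1 replicate 1 and THZ1 replicate 2. Gene-dense chromosome 19 had 5, 7, 3 and 3 in the same order.

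The log2 ratio in number was lowest for the shortest loops, and this held for other small loops too. Loops of 35 kb, the shortest size in the lists for this group, numbered 225 and 241 with vehicle against 100 and 78 with THZ1, a log2 ratio of -1.39 ± 0.26. Loops over 70 to 90 kb numbered 201 and 243 with vehicle against 142 and 110 with THZ1, a log2 ratio of -0.82 ± 0.32. The same bins gave -1.28 ± 0.31 and -0.78 ± 0.18 for the other small loops, the same order of these bins. The mean size was 54.6 ± 0.08 kb with vehicle and 57.4 ± 0.30 kb with THZ1 (SD, n = 2; exact permutation p = 0.33). Anchors of 5 kb made up 902 and 1097 of the loops with vehicle and 486 and 370 with THZ1, the rest had anchors of 10 kb, and no loop had anchors of 25 kb. The log2 ratio was -1.22 ± 0.34 for 5 kb anchors and -0.58 ± 0.31 for 10 kb anchors.

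The loops lay at similar distances from genes in both conditions. The median gap from the nearer anchor to the nearest protein-coding gene body was 53.0 and 57.0 kb with vehicle against 45.3 and 52.2 kb with THZ1. The means of 55.0 ± 2.8 kb and 48.7 ± 4.8 kb (SD, n = 2; exact permutation p = 0.33) differed by little more than the spread between libraries. Measured to the nearest gene start, the libraries of the conditions overlapped, with medians of 72.9 and 78.4 kb against 64.7 and 73.6 kb (exact permutation p = 0.667). The lower number held at every distance. Within 20 kb of a gene the log2 ratio was -0.94 ± 0.37, at over 100 to 200 kb it was -1.34 ± 0.32, and beyond 500 kb, with 37 and 54 loops against 22 and 21, it was -1.08 ± 0.39. The order of these ratios was within their spread.

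**Figure D2:**
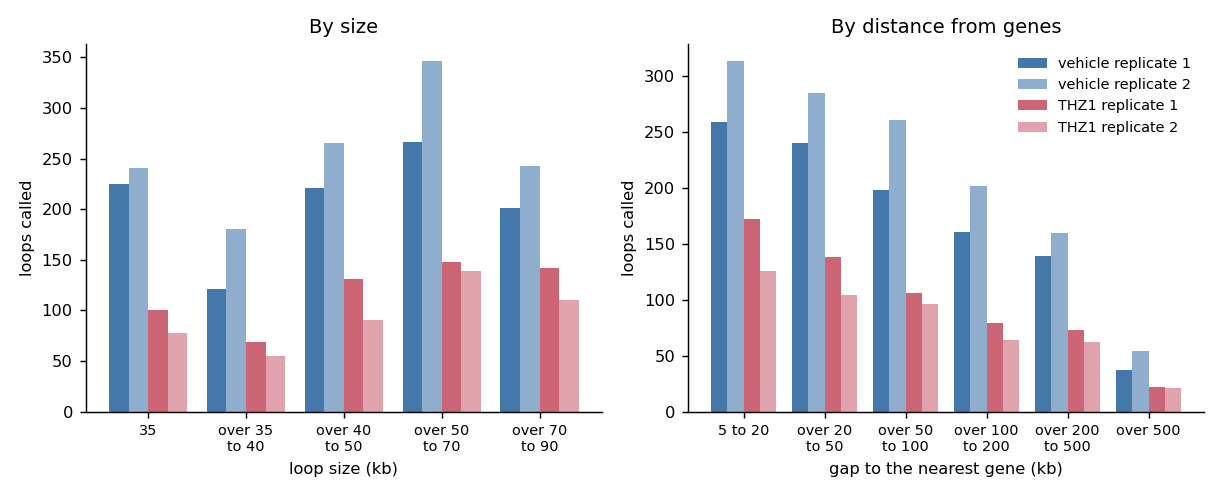
Numbers of small loops outside genes per library by loop size (left) and by the gap from the nearer anchor to the nearest protein-coding gene body (right), both in kb. In every bin both THZ1 libraries lie below both vehicle libraries, from 225 and 241 against 100 and 78 loops at 35 kb to 37 and 54 against 22 and 21 beyond 500 kb.

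At the edges of the rule, 47 and 58 loops with vehicle against 31 and 19 with THZ1 had a gap of 5 to 7 kb. Small loops just outside, with a gap of 3 to 5 kb, numbered 68 and 61 with vehicle against 25 and 38 with THZ1. Loops over 85 to 90 kb numbered 44, 63, 43 and 39, and loops outside genes over 90 to 95 kb numbered 32, 35, 13 and 6, in the order of vehicle replicates 1 and 2 and THZ1 replicates 1 and 2.

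The loops that were called were weaker with THZ1. Strength is the log2 ratio of the contacts observed at a loop to those expected from the donut-shaped neighborhood around it, so a value of 1 is a doubling over the surroundings. The median strength was 1.93 and 1.92 for vehicle against 1.62 and 1.63 for THZ1. The difference of -0.30 was far larger than the SDs of 0.010 and 0.0040 between libraries (n = 2; exact permutation p = 0.33). The median observed count was not lower: it was 26 and 28 contacts with vehicle against 32 and 32 with THZ1. The median expected count was 6.84 and 7.42 with vehicle against 10.2 and 10.2 with THZ1. Other small loops were alike, with median expected counts of 6.78 and 7.45 with vehicle against 9.78 and 9.55 with THZ1. Counts of called loops depend on what the caller could detect, so the levels of the lists are those of the loops that passed in each.

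**Figure D3:**
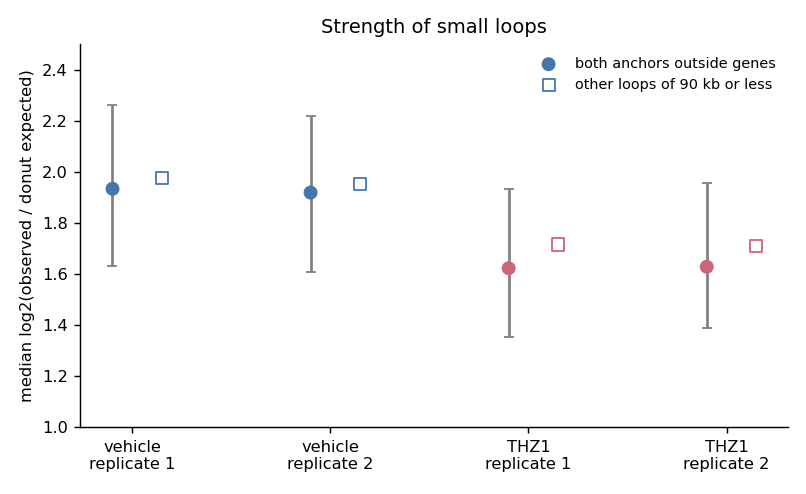
Median log2 strength of small loops in each library, for loops with both anchors outside genes (filled circles, bars from the lower to the upper quartile over loops) and for the other loops of 90 kb or less (open squares). The circles lie at 1.93 and 1.92 with vehicle against 1.62 and 1.63 with THZ1, and each circle lies below its square.

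Loops outside genes were slightly weaker than other small loops in every library, and the gap was wider with THZ1. Other small loops had median strengths of 1.97, 1.95, 1.72 and 1.71 in the same order of libraries. The loops outside genes lay below them by a mean of 0.038 ± 0.004 with vehicle and 0.087 ± 0.008 with THZ1 (SD, n = 2; exact permutation p = 0.33). The widening of 0.049 on the log2 scale was larger than the spread between libraries, but it was 0.003 for 10 kb anchors. With the bodies of all annotated genes in the rule it was 0.013, and loops outside genes were then not weaker in every library: the differences were 0.035 and -0.0075 with vehicle and -0.034 and 0.035 with THZ1. In every size and distance bin the median strength was lower with THZ1, by 0.24 to 0.42 on the log2 scale.

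Loops found in THZ1-treated cells were mostly found with vehicle too, while the reverse was less frequent. A loop was counted as found again when both anchor midpoints of a loop in the other list lay within 20 kb. Of the loops of vehicle replicate 1, 77.0% were found in the other vehicle list, against 43.9% and 38.4% in the THZ1 lists. Of the loops of THZ1 replicate 2, 81.2% and 84.8% were in vehicle replicates 1 and 2 and 68.7% in THZ1 replicate 1. Each THZ1 library thus shared more of its loops with either vehicle library than with the other THZ1 library. The vehicle lists are longer, which alone gives more chances to match, and this part was not tested. Loops in both vehicle lists and neither THZ1 list numbered 285 (27.6%) counted from vehicle replicate 1 and 282 (22.1%) from vehicle replicate 2, against 11 (1.86%) and 10 (2.11%) in both THZ1 lists and neither vehicle list. Other small loops gave 23.5% and 20.8% against 0.97% and 1.30% on the same count, and those of vehicle replicate 1 recurred at 49.8% and 44.2% in the THZ1 lists. With midpoints within 10 kb the numbers for loops outside genes were 289 and 283 against 23 and 21.

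**Figure D4:**
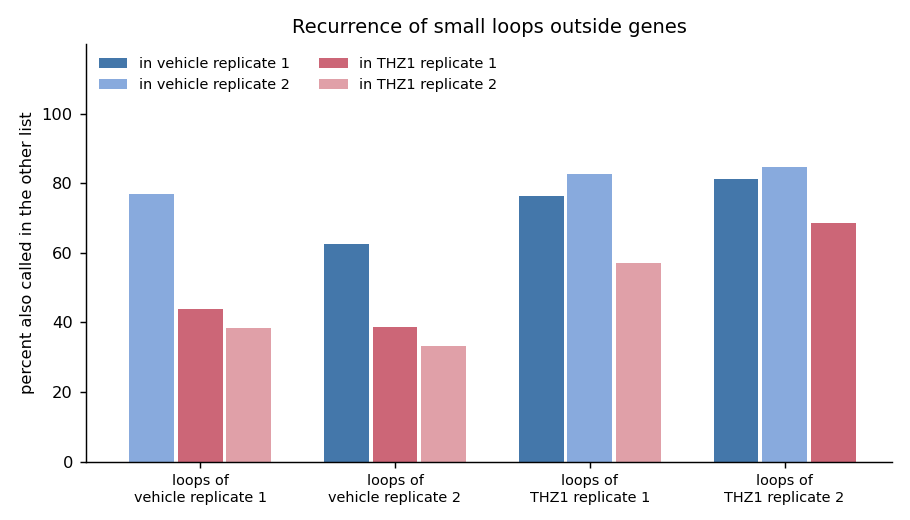
Percent of the small loops outside genes of each library that were also called in each of the other 3 lists, with both anchor midpoints within 20 kb. Loops of the THZ1 libraries recur in the vehicle lists at 76.4% to 84.8%, and loops of the vehicle libraries recur in the THZ1 lists at 33.2% to 43.9%.

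Loops that recurred in all 4 lists were the stronger ones with vehicle. Their median strength with vehicle was 2.24 and 2.20, against 1.81 and 1.82 for loops of both vehicle lists only. In the THZ1 libraries the recurrent loops had medians of 1.71 and 1.66. These loops numbered 304, 311, 307 and 298, and they lay a median of 44.8, 44.1, 46.2 and 48.0 kb from a gene.

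The 3 strongest loops that only the vehicle libraries listed lay near different kinds of genes. A loop on chromosome 22, from 23045001 to 23110000, lay 54.6 kb from GGTLC2, a gamma-glutamyltransferase light chain gene, with strengths of 4.30 and 3.71 on only 14 and 13 contacts. A loop on chromosome 7, from 66715001 to 66770000 in vehicle replicate 1, lay 10.5 kb from TYW1, which acts in tRNA modification. Its strength was 2.94 on 13 contacts, and its anchors touched the noncoding genes PMS2P4 and STAG3L4. The loop matched to it in vehicle replicate 2, within 20 kb but not with the same anchors, had a strength of 3.27 on 25 contacts. A loop on chromosome 15, from 101665001 to 101710000, lay 5.93 kb from CHSY1, a chondroitin synthase, with strengths of 2.93 and 2.68 on 36 and 32 contacts. The third was within 1 kb of the edge of the rule.

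Of the few loops that only the THZ1 libraries listed, the 3 strongest had strengths of 1.84 to 2.34. The first, on chromosome 6 from 32440001 to 32540000, lay 5.68 kb from HLA-DRB1, an MHC class II gene in a family of near-identical copies among which reads may be split. The second, on chromosome 9 from 32705001 to 32745000, lay 38.5 kb from TMEM215, a transmembrane protein gene. The third, on chromosome 4 from 185925001 to 186020000, lay 9.64 kb from HELT, a basic helix-loop-helix transcription factor gene, and its anchors touched the long noncoding RNA genes LINC02436 and LINC02437. Their counts of 21 to 28 contacts per library were modest.

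Loops with identical anchors in all 4 lists allowed a test loop by loop. At these loops the libraries of a condition differed by no more than sampling noise. The edgeR p-values here and for the loops named below may therefore cover counting error only, and not a spread between cultures. Over 2617 such loops of all sizes, edgeR's quasi-likelihood test, run on observed contacts with the donut expected count as offset, called 721 weaker with THZ1 (27.6%) and 1 stronger (0.0382%) at a Benjamini-Hochberg adjusted p under 0.05. Of the 109 small loops outside genes among them, 106 had a lower fitted strength, 49 (44.95%) passed as weaker and none as stronger. An unadjusted p under 0.05 was reached by 61 in either direction. Their median log2 change was -0.50, against -0.48 for the 814 other small loops, of which 38.5% passed as weaker, and -0.37 for 1694 larger loops, of which 21.2% passed. The number of calls among the 109 depended on the tool and the neighborhood. It was 39 with the lower left neighborhood, where 23.2% of all 2617 loops were called weaker. It was 2 and 6 with the horizontal and vertical ones (1.80% and 2.75% of all loops). DESeq2 with the donut gave 6 (2.10% of all loops). With anchor midpoints matched within 20 kb it was 0 of 287, and none of all 8422 loops was called. Without 1 library a condition is left with a single library, so calls are not counted there. The median stayed between -0.39 and -0.53 in these fits and without each library in turn, so the direction did not rest on 1 library. DESeq2 with its own size factors, without the expected counts, called none of the 109 and none of all 2617 loops. Its median was -0.14.

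The expected count separated the conditions and the observed count did not. Over the 109 loops the median observed counts were 38, 49, 40 and 38 contacts and the median expected counts 7.61, 8.39, 11.2 and 9.77, in the order of vehicle replicates 1 and 2 and THZ1 replicates 1 and 2. The median log2 change was -0.17 for the observed counts and 0.34 for the expected counts, neither scaled for depth. The same values were -0.17 and 0.32 for the other small loops and 0.09 and 0.45 for the larger loops. A higher expected count with THZ1 was thus not particular to loops outside genes. Scaling by TMM takes its level from the 2617 loops themselves, so a change common to all of them is removed. The median over all of them was then -0.0056. With TMM-normalized observed counts and no expected count, the median change of the 109 loops was -0.15. By edgeR 9 of them (8.26%) passed as weaker and 1 as stronger. Other small loops gave nearly the same, with a median of -0.15 and 8.85% weaker. Over all 2617 loops 108 (4.13%) passed as weaker and 67 as stronger. Before any scaling for depth, the expected count around the loop was the term that moved more. In 81 of the 109 loops (74.3%) both THZ1 libraries had lower strength than both vehicle libraries, against 68.8% of all 2617 loops. The share was higher among the 814 other small loops (79.2%) and lower among the 1694 larger loops (63.4%). In 2 of the 109 both THZ1 libraries had higher strength, against 1.18% of all loops.

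**Figure D5:**
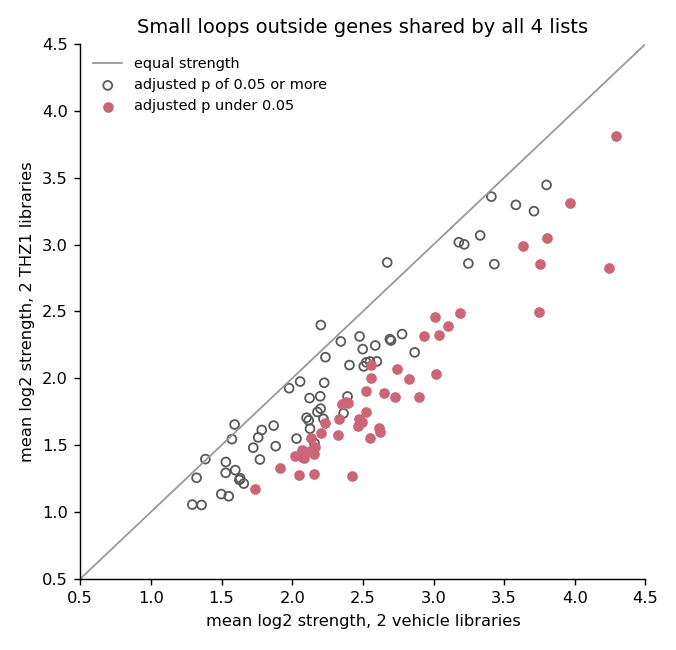
Mean log2 strength in the 2 vehicle libraries (x axis) and the 2 THZ1 libraries (y axis) of the 109 small loops outside genes with identical anchors in all 4 lists. The 49 filled points passed edgeR's test at an adjusted p under 0.05, and nearly all points lie below the line of equal strength.

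The largest change past the threshold was at a loop on chromosome 12 between anchors chr12:55385001-55390000 and chr12:55465001-55470000, the first of those whose CTCF core matches are shown above. It lay 6.45 kb from TESPA1, a gene of T cell development. Its strength was 3.79 and 4.69 with vehicle against 3.08 and 2.56 with THZ1, a log2 change of -1.43 ± 0.28 (SE; edgeR adjusted p = 0.0033). Its observed counts overlapped between conditions, at 24 and 41 contacts against 36 and 24, while its expected count was 1.73 and 1.59 against 4.25 and 4.06. With TMM-normalized observed counts alone its log2 change was -0.10 and it did not pass.

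The loop near TEX44, a testis-expressed gene 16.0 kb away, joined chr2:232475001-232480000 and chr2:232535001-232540000. It had 58 and 81 contacts with vehicle against 51 and 32 with THZ1, and its strength went from 3.72 and 3.77 to 2.89 and 2.10, a log2 change of -1.22 ± 0.21 (edgeR adjusted p = 0.0020). Both measures separated the conditions without overlap.

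The loop near CTAGE1, a gene of a cancer-testis antigen family 12.1 kb away, spanned 20010001 to 20050000 on chromosome 18. Its strength was 2.55 and 2.30 with vehicle against 1.20 and 1.34 with THZ1, with 76 and 69 contacts against 44 and 46. The log2 change was -1.15 ± 0.18 (edgeR adjusted p = 0.0015).

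The loop near BCAS1, a gene first described as amplified in breast carcinoma, spanned 52390001 to 52450000 on chromosome 20 and lay 103 kb from the gene. It had the highest counts of these 5 loops, at 113 and 143 contacts with vehicle against 62 and 56 with THZ1, while its expected count was 15.6 and 18.6 against 16.9 and 15.6. Its strength was 2.85 and 2.94 against 1.88 and 1.85, a log2 change of -1.04 ± 0.17 (edgeR adjusted p = 0.0015). Here the observed contacts separated the conditions and the expected contacts overlapped.

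The loop near RPS29, a gene of the small ribosomal subunit 22.7 kb away, spanned 49975001 to 50015000 on chromosome 14. Its strength was 2.64 and 2.60 with vehicle against 1.51 and 1.69 with THZ1, a log2 change of -1.02 ± 0.19 (edgeR adjusted p = 0.0026). With TMM-normalized observed counts alone its log2 change was -0.43 and it did not pass. The same fit gave -0.73 near TEX44, -0.67 near CTAGE1 and -1.10 near BCAS1, all past the threshold.

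The loops farthest from genes did not pass the test. A loop on chromosome 4, 1115 kb from ARAP2, a GTPase-activating protein gene, had strengths of 3.69 and 3.17 with vehicle against 3.27 and 2.44 with THZ1, so the conditions overlapped (edgeR adjusted p = 0.22). A loop on chromosome 6, 868 kb from the transcription factor gene TFAP2A, had 1.48 and 1.51 against 1.21 and 1.05, which did not overlap (edgeR adjusted p = 0.10). A loop on chromosome 11, 686 kb from KCNA4, a voltage-gated potassium channel gene, had 1.46 and 1.31 against 1.12 and 1.67 (edgeR adjusted p = 0.98). Loops past the threshold lay a median of 62.7 kb from a gene and those not past it 33.0 kb, and they also had more contacts, at a median of 50.2 against 35.8.

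Matches to the CTCF core were more frequent at these anchors than in the genome, and less frequent than at other small loops. Over 566853 bins of 5 kb, 12.0% held a match on either strand, and of the bins outside genes 10.6% did. Of the 5 kb anchors of loops outside genes, 18.02% ± 1.2 held one with vehicle and 19.9% ± 0.07 with THZ1 (SD, n = 2), against 23.5% ± 0.49 and 26.3% ± 0.73 at other small loops. The mean GC content of the anchors was 42.9% and 42.5%, above the 39.6% of bins outside genes and below the 47.4% and 47.2% of the other small loops, and its part in the matches was not tested. Loops with matches at both anchors made up 3.34% ± 0.18 with vehicle and 5.62% ± 0.08 with THZ1. Loops with matches facing each other made up 1.40% ± 0.05 and 2.89% ± 0.27, which is 13 and 15 loops against 15 and 10 (exact permutation p = 0.33 for both). At other small loops, loops with facing matches made up 2.90% ± 0.07 and 4.81% ± 0.24, so the share was higher with THZ1 there too. Of the 109 shared loops, 106 had 5 kb anchors, and the 6 with facing matches had a median log2 change of -0.74 with 4 past the threshold, the 30 with another arrangement -0.56 with 15, and the 70 with no match -0.49 with 30.

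Outside protein-coding genes did not mean outside all genes. The anchors touched a long noncoding RNA gene in 57.5% ± 0.14 of the loops with vehicle and 58.4% ± 2.6 with THZ1 (SD, n = 2), which differed by less than the spread between libraries. Among these, PVT1, a noncoding RNA gene next to MYC, was at an anchor of 3, 7, 4 and 4 loops in the order of vehicle replicates 1 and 2 and THZ1 replicates 1 and 2. LINC00511 was at an anchor of 7, 7, 3 and 4. LINC00578 was at an anchor of 4, 4, 0 and 0. These 3 were chosen after their values were seen. Segments of immunoglobulin and T cell receptor genes, which the annotation does not class as protein-coding, lay at or within 5 kb of an anchor of 10, 8, 2 and 4 loops.

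Some genes were nearest to many of the loops. Distinct anchor pairs over the 4 lists were counted, so a loop called a bin apart in different lists counts more than once. Of 1061 genes nearest to at least 1 loop, 542 were nearest to exactly 1 pair and 99 to 5 or more. Whether this exceeds the level from gene spacing was not tested. The most pairs were nearest to DIPK2B on the X chromosome with 17, ACTBL2, an actin-like gene, with 16, and KLF6, a zinc finger transcription factor gene, with 16. MYC, the transcription factor and oncogene, followed with 13, SLC38A2, an amino acid transporter gene, with 12, C20orf85 and KRBOX4 with 11 each, and ACTL7B, MARCKS and MSRB3 with 10 each. The loops nearest to KLF6 numbered 7 and 10 with vehicle against 4 and 1 with THZ1. Those nearest to MYC numbered 4 and 9 with vehicle against 4 and 4 with THZ1, so the conditions touched there. Those nearest to DIPK2B numbered 8 and 8 against 6 and 4.

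A list of 68 regulators with wide gene-poor flanks, mostly transcription factors, was counted among the nearest genes. Of these 25 (36.8%) were nearest to at least 1 loop, against 1061 of 20090 protein-coding genes (5.28%). The list was drawn up from genes known for such flanks, so a higher share follows from how it was made. Loops nearest to a gene of the list made up 4.55% and 4.78% with vehicle against 3.56% and 4.23% with THZ1. ETS1 was nearest to 4, 4, 0 and 0 loops, SOX9 to 4, 5, 0 and 1, and JUN, a subunit of AP-1, to 2, 4, 2 and 2. These 3 genes were chosen after their values were seen.

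Most of the loops lay within larger loops in both conditions. In 95.3% ± 0.93 of the loops with vehicle and 94.7% ± 1.2 with THZ1 (SD, n = 2), a larger loop of the same list enclosed the loop. A loop shared an anchor with another loop in 82.9% ± 0.99 with vehicle and 71.7% ± 0.02 with THZ1, and the other small loops gave 84.2% ± 2.8 and 72.7% ± 1.9. Lists with fewer loops offer fewer partners, and that part was not tested. Loops lay inside a contact domain of any of the 4 domain lists in 70.9% and 69.2%, against 52.6% and 51.9% of the other small loops. Inside a domain of their own library's list lay 43.0% ± 1.6 with vehicle and 53.5% ± 3.6 with THZ1 (SD, n = 2; exact permutation p = 0.33), against 25.4% ± 2.3 and 39.6% ± 0.10 of the other small loops, and the domain lists held 1198 and 1398 domains with vehicle against 2477 and 2345 with THZ1. Loops called from a single pixel of the contact map made up 37.9% ± 0.48 with vehicle and 43.9% ± 0.44 with THZ1.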

How the data were processed

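Arima-HiC libraries of MDA-MB-231 cells were processed by the authors with Juicer v1.6 on hg19, and the loop lists carry the header of juicer_tools 1.19.02. The deposited lists give raw counts of observed contacts and of merged pixels, the expected contacts of 4 neighborhoods (a signal value) and a false discovery rate (a q-value, on the p-value scale) for each, per the file headers. Tables of loops unique to a condition, made by the authors, were not used. Domain lists were used for positions only. Samples were grouped by their labels.

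Loops were annotated with GENCODE 44 on GRCh37 in Python 3.11.15. One value per library entered an exact permutation test over 6 splits. For loops with identical anchors in all 4 lists, edgeR 4.0.16 (R 4.3.3) was the test and DESeq2 1.42.0 an alternative. These loops numbered 2624, and 7 whose expected count was 0 in any neighborhood were left out. This rule was settled after the counts under it and under a rule on the donut alone had been seen, and both are given below. Among 2617 simulated loops, edgeR recovered 72% of those changed 2-fold and 23% of those changed 1.5-fold, with 1 false call of 96. The simulation took the spread fitted to these libraries as true and changed 200 loops, as many up as down. Its rate of false calls does not carry over to these data, where nearly all calls were weaker. At the 2617 real loops the chi-square over its degrees of freedom was 0.82 and 0.81 within conditions, against 1.50 to 1.79 across. There the 2 libraries of a condition thus differed by no more than sampling noise. Their lists differ, and no other pair of a condition was there to compare, so they were counted as 2, but p-values from edgeR may then cover counting error only.

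Named loops were up to 5 with the largest change past the threshold in each direction with no overlap of conditions. The 3 strongest of each condition only and the 3 shared loops farthest from a gene were also named. Named genes were the nearest to these and the 10 nearest to the most distinct anchor pairs. The loop group, lists and rules were chosen with earlier results of these data known. Wilson intervals (95%) cover counting error only. Total reads are not given per library, so the depth behind a value is that of its contacts: those of the loops outside genes summed to 31495, 42068, 21525 and 17502 in vehicle replicates 1 and 2 and THZ1 replicates 1 and 2.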

Additional observations from a re-analysis of the deposited data

How the results depend on the processing

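The lower number of loops with THZ1 kept its direction under all 9 alternatives and without each library (log2 ratio -1.29 to -0.96). It moved by more than the spread between libraries with 10 kb anchors only (-0.58) and with the 15000 strongest loops of each list (-0.35). The difference in share was -0.28 percentage points with the bodies of all annotated genes and -1.62 to -0.67 without 1 library, and the difference in gap was -0.20 kb with all annotated genes and -9.71 to -2.86 kb without 1 library. The difference in median strength kept its direction under all 13 alternatives and was -0.31 to -0.29 without 1 library. It was -0.28 with unextended anchors, -0.27 with all annotated genes, -0.12 with 10 kb anchors and -0.27 with at least 20 contacts. It was -0.34, -0.21 and -0.21 with the lower left, horizontal and vertical neighborhoods and -0.60 with identical anchors in all 4 lists. With the 15000 strongest loops it was -0.54, but that alternative cannot test the direction. It ranks loops by strength and drops more weak loops from the longer vehicle lists, which raises the vehicle medians (2.19 and 2.28). The difference to other small loops was -0.025 with unextended anchors, -0.013 with all annotated genes, -0.064 with size to the far end of the second anchor, -0.073 with 5 kb anchors, -0.0034 with 10 kb anchors, -0.027 with at least 20 contacts, -0.038 with the horizontal neighborhood, -0.079 with identical anchors, and -0.055 to -0.043 without 1 library. The log2 ratio of loops in both THZ1 lists only to those in both vehicle lists only was -4.75, and -3.70 with midpoints within 10 kb, which was chosen after seeing the data, -4.16 with all annotated genes and -5.11 with 5 kb anchors. Leaving out a library was not possible there, since both libraries define the class.

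The number of shared loops outside genes called weaker by edgeR was 49, and 43 with only a donut count of 0 left out, an alternative chosen after seeing the data, under which 648 of 2623 loops were called weaker. It was 51 with the replicate block. Same-numbered libraries deviated together with a correlation of only 0.017, so the numbers do not pair them. The number was 20 of 38 with all annotated genes, 2 and 6 with the horizontal and vertical neighborhoods, 9 with TMM and no expected count, 6 with DESeq2 and the donut, 0 with DESeq2 and its own size factors (8 at an unadjusted p under 0.05), 0 to 17 without 1 library (41 to 51 at an unadjusted p under 0.05) and 0 of 287 with midpoints within 20 kb (104 at an unadjusted p under 0.05). The cause was not tested. The median change was -0.50, and it was -0.58 with all annotated genes, -0.39 with the horizontal and with the vertical neighborhood, -0.15 with TMM, -0.14 with DESeq2's own size factors and -0.53 to -0.44 without 1 library. All 5 loops named as weaker kept their direction in every fit, but not their calls. None of them passed with DESeq2's own size factors or with midpoints within 20 kb. With the horizontal neighborhood only that near CTAGE1 passed. Those near TESPA1 and RPS29 also did not pass with TMM or with DESeq2 and the donut, and that near TEX44 did not with the vertical neighborhood. Of the loops farthest from genes, that near KCNA4 turned to 0.35 with the vertical neighborhood, 0.30 with TMM, 0.019 and 0.31 with DESeq2, 0.016 with the replicate block, 0.013 with midpoints within 20 kb and as far as 0.28 without 1 library (-0.26 to 0.28). That near ARAP2 turned to 0.30, 0.016, 0.68 and 0.67 with the horizontal and vertical neighborhoods, TMM and DESeq2's own size factors, and that near TFAP2A to 0.090 with the vertical neighborhood.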
